A study of Mus musculus with 10 samples.

Results

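The genes described here are 10 regulators and markers of the primitive streak and early mesoderm: T, Mixl1, Gsc, Mesp1, Evx1, Wnt3, Tbx6, Kdr, Snai1 and Lhx1. They were taken by name, as every array probe annotated to one of these genes, which gave 13 of the 39429 probes on the array, for 10 of its 31660 gene names. T, Mixl1, Gsc, Mesp1, Evx1, Wnt3 and Snai1 had 1 probe each and Tbx6, Kdr and Lhx1 had 2 each. They were measured in mouse embryonic stem (ES) cells that lack Tet1, Tet2 or both, enzymes that oxidise 5-methylcytosine in DNA. Total RNA of 11 labelled lines was hybridised to 10 two-colour Agilent oligonucleotide arrays. The study asked how loss of these enzymes alters expression.

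The groups were 4 lines with Tet1/Tet2 double knockout (DKO 51 and 61, male, and DKO 60 and 59, female), 1 male Tet2 knockout line (T2KO 16), 2 male Tet1 knockout lines (T1KO 99 and 65) and 4 wild-type lines (WT 6 and 92, male, and WT 7 and 94, female). All came from a mixed C57/BL/6 background, and none was treated. The cells grew with LIF, the cytokine that holds mouse ES cells undifferentiated, over a layer of irradiated feeders, and preplating took these cells away ahead of RNA extraction. Each DKO line, labelled with Cy5, shared its arrays with a WT line of its sex, labelled with Cy3, which makes 4 pairs of lines. T2KO 16 in Cy5 shared arrays with T1KO 65 in Cy3. T1KO 99 in Cy3 shared its arrays with a sample that the labels exclude because its genotype was wrong, and which enters no comparison here. No dyes were swapped, so genotype and dye cannot be told apart where Cy5 is set against Cy3. The T2KO genotype is 1 line, so a property of that line and of its genotype cannot be told apart either.

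The primitive streak is the furrow of the gastrulating embryo through which epiblast cells pass to become mesoderm and definitive endoderm. Wnt3, together with Nodal and BMP signals, starts it, and the T-box factor T (brachyury) is a direct target of Wnt signalling there. Mixl1, Evx1, Gsc and Lhx1 are homeobox factors of the streak and its anterior end, Mesp1 and Tbx6 mark mesoderm that has left it, Snai1 drives the epithelial-mesenchymal transition of ingressing cells, and Kdr is the VEGF receptor of mesoderm that gives rise to blood and vessels. ES cells in LIF are largely undifferentiated, and scattered cells with T are a known feature of such cultures.

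The probes are 60-base DNA oligonucleotides. Of the 13 probes, 5 contain the polyadenylation signal AATAAA, the word that precedes the cleavage site of most mRNAs. The parts around that signal are shown for the genes on which the results turn, with the signal in capitals.
T: tgttttctgcacAATAAAggcaatatatag
Evx1: ttaaccatattgcAATAAAagctgaacatg
Tbx6, probe 1: agtatttttgttAATAAAactccaaagaca
Gsc: cggtgacaatacAATAAAgtgatggcaatg
In the mm9 build, which the array design uses, the T probe lies at chr17:8635302-8635361 on the plus strand and the Wnt3 probe at chr11:103679038-103679097 (plus). The Evx1 probe lies at chr6:52268298-52268357 (plus) and the Gsc probe at chr12:105709426-105709485 (minus). Tbx6 probe 1 lies at chr7:133929000-133929059 and probe 2 just upstream of it at chr7:133928828-133928887 (both plus). The Snai1 probe lies at chr2:167368073-167368132 (plus), and the Kdr probes at chr5:76329309-76329368 (probe 1) and chr5:76330395-76330454 (probe 2, both minus). Those of Lhx1 lie at chr11:84331888-84331947 and chr11:84335442-84335594 (minus), the Mixl1 probe at chr1:182624310-182624369 (minus) and the Mesp1 probe at chr7:86937140-86937199 (minus). No annotation of exons was used.

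The promoters of T and Wnt3 are shown because the levels of both genes moved together between the lines, as described further on. They are the 250 bases before the transcription start in GRCm38.p6, from RefSeq, in which 9 of the 10 genes had an entry. T is at chr17:8434173-8434422 and Wnt3 at chr11:103773925-103774174, both on the plus strand. Capitals mark a TCF/LEF word, the core that the DNA-binding partners of beta-catenin recognise, searched as the word CTTTGAA, the word CTTTGAT, the word CTTTGTA and the word CTTTGTT on both strands.
T: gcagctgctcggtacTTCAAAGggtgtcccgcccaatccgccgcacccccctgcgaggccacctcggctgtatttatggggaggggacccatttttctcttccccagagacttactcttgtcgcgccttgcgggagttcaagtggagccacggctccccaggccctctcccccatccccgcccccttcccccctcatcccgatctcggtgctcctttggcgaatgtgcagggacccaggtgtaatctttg
Wnt3: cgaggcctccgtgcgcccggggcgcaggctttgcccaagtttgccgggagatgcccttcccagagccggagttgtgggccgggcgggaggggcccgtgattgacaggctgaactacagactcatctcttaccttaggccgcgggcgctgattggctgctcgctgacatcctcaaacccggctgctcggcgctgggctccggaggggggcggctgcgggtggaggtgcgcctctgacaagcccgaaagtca
The T window held 1 such word and the Wnt3 window 0, while 14.8% of 32851 RefSeq promoter windows of the same length held at least 1. Among the other members, Mesp1 held 2, and the windows of Gsc, Evx1, Tbx6, Kdr, Snai1 and Lhx1 held 0. The T-box word GGTGTGA, on either strand, was in 0 of the 9 windows and in 3.3% of all windows. The T window had 14 CpG dinucleotides and the Wnt3 window 22, against a median of 6 over all windows. A matched word is a description of the sequence and does not show that a factor binds there.

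Across the arrays, 62.6% to 69.0% of the 43020 gene spots were well above background in Cy5 and 55.2% to 61.5% in Cy3, and 0 were saturated. Levels below are normalized log2 intensities of a line, averaged over its repeat arrays, and can be set only against the same probe. Tet1 had levels of 10.52 to 11.07 in DKO and T1KO lines, against 12.78 to 13.12 in T2KO and WT lines. Tet2 had 9.40 to 10.12 in DKO and T2KO lines, against 11.43 to 12.05 in T1KO and WT lines. In bulk RNA of this kind, fewer cells of a type and less RNA per cell cannot be told apart, and the arrays do not show whether a few cells or all cells carry a transcript.

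Whether the members were measurable at all differed between them. A probe was taken as detected on an array when at least 0.5 of its spots were well above background in the channel of the line. Gsc, Snai1, Kdr probe 2 and both Tbx6 probes were detected in 18 of 18 channels of labelled lines. Mixl1, Mesp1 and Lhx1 probe 1 were detected in 0 of 18, with levels of 6.12 to 6.42 for Mixl1, 6.29 to 6.57 for Mesp1 and 6.27 to 6.64 for Lhx1 probe 1. These 3 probes were not well above background in any line and were left out of the tests by the detection filter. T and Wnt3 were each detected in 10 of 18 channels, Lhx1 probe 2 in 11, Evx1 in 8 and Kdr probe 1 in 4. Of the defining streak genes of the set, T and Wnt3 were thus well above background in some lines and not in others, and Mixl1 and Mesp1 in none. A probe that was not well above background is not thereby shown to be absent. A probe was tested if it was detected on every array of some genotype and sex. T and Wnt3 met this only in the male DKO lines, Evx1 only in both DKO groups, Kdr probe 1 only in the female DKO lines and Lhx1 probe 2 only in DKO and T2KO lines, so these 5 were admitted through Cy5 groups. Detection differed between the dyes at a given level: Evx1 was detected in DKO 51 at 6.95 in Cy5 and not in T1KO 99 at 6.94 in Cy3. The lowest level of any probe well above background was 5.69 to 6.20 on the Cy5 side of the arrays and 5.52 to 6.84 on the Cy3 side. The label of the set names these genes by their role in the embryo and does not describe the state of the cells measured.

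**Figure D1:**
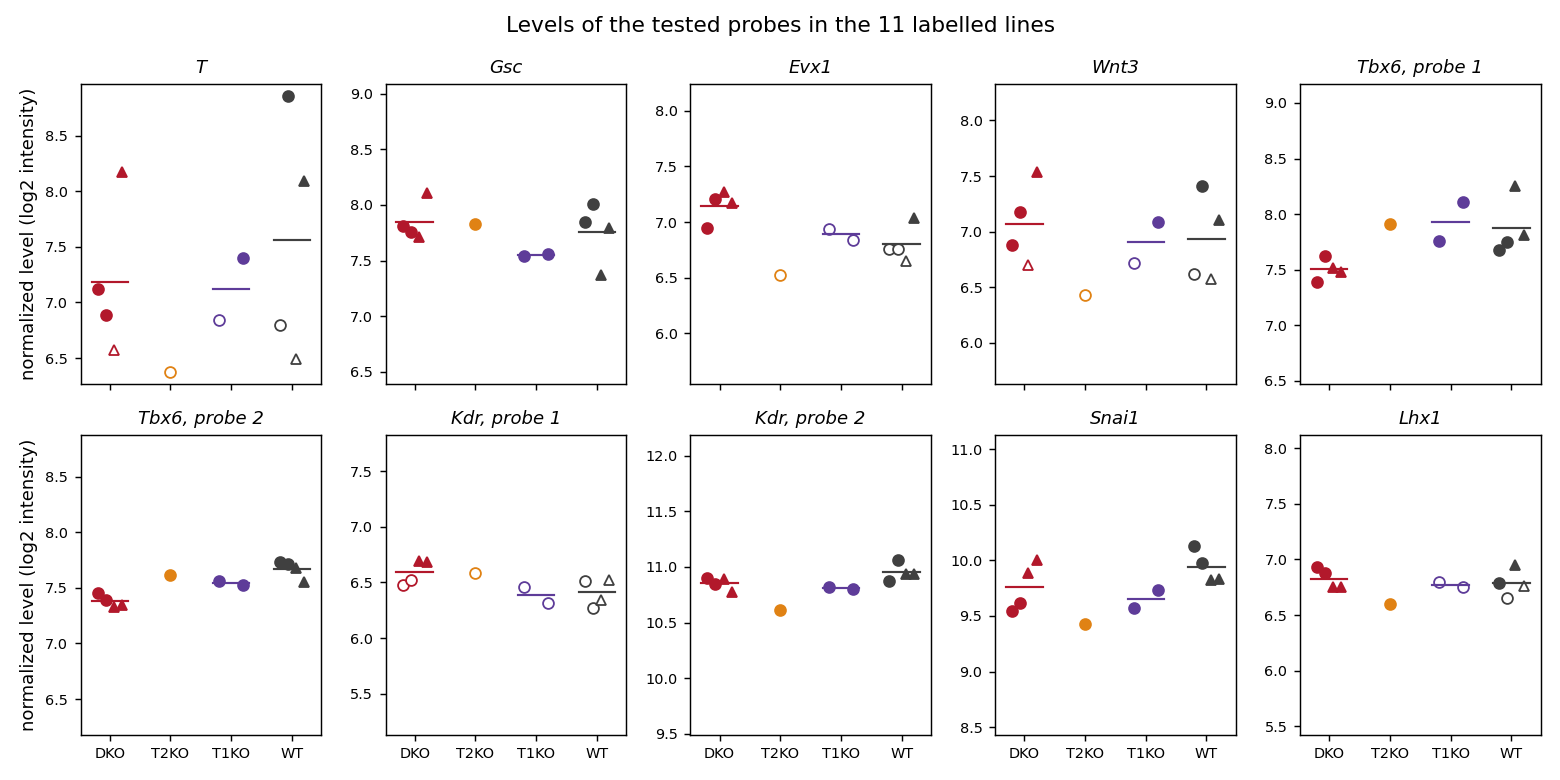
Normalized level (log2 intensity) of the 10 tested probes in each of the 11 labelled lines, by genotype on the x axis. Circles are male and triangles female lines, filled where every array of the line was well above background and open where at least 1 was not, and bars are group means; every panel spans the same number of log2 units. T and Wnt3 spread widely within DKO and within WT, whereas the DKO points of both Tbx6 probes lie below all WT points.

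The comparison of DKO with WT lines asked which members differ once both enzymes are lost. None of the 10 tested probes, which stand for 8 genes, passed an adjusted p of 0.05 (limma on the log2 ratios of the 4 pairs, two-sided, Benjamini-Hochberg over all 25857 probes), while 3.95% of all probes did. At an unadjusted p under 0.05 there were 3 member probes, Evx1 and both probes of Tbx6, against 26.0% of all probes. The member ratios had a median of -0.03 on the log2 scale and ranged between -0.37 and 0.35, and the median over all probes was 0.02. Their median size without regard to sign was 0.179, against 0.135 over all probes. Evx1 and both Tbx6 probes, 3 of the 10, had the same sign in all 4 pairs, as did 36.8% of all probes.

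Tbx6, a T-box factor that in the embryo directs streak cells to paraxial mesoderm, came nearest to a change. Probe 2 had levels of 7.45, 7.39, 7.32 and 7.34 in DKO lines 51, 61, 60 and 59, against 7.73, 7.71, 7.68 and 7.56 in WT lines 6, 92, 7 and 94. All 4 DKO lines lay below all 4 WT lines. The mean was 7.38 ± 0.06 in DKO and 7.67 ± 0.08 in WT lines (SD, n = 4 each), a log2 ratio of -0.29 (SE 0.0585, 95% interval -0.44 to -0.15), lower in 4 of 4 pairs, with a limma adjusted p of 0.0630. The ratio averaged -0.30 in the male and -0.28 in the female pairs, and the adjusted p was 0.105 with sex, which is also the slide, as a covariate.

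Probe 1 of Tbx6 had levels of 7.39, 7.63, 7.51 and 7.48 in DKO lines 51, 61, 60 and 59, against 7.67, 7.75, 8.26 and 7.81 in WT lines 6, 92, 7 and 94. Its groups did not overlap either, and WT 7 stood highest. The mean was 7.50 ± 0.10 in DKO and 7.87 ± 0.26 in WT lines (SD, n = 4 each), a log2 ratio of -0.37 (SE 0.113, limma adjusted p = 0.126), lower in 4 of 4 pairs. The male pairs averaged -0.20 and the female pairs -0.54. Levels of the DKO and WT lines did not overlap for 2 of the 10 member probes, both of Tbx6, and for 13.3% of all tested probes.

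Evx1, a homeobox factor of the posterior streak, had levels of 6.95, 7.20, 7.27 and 7.17 in DKO lines 51, 61, 60 and 59, against 6.75, 6.75, 6.65 and 7.04 in WT lines 6, 92, 7 and 94. DKO 51 lay below WT 94, while DKO 61, 60 and 59 exceeded all WT lines. Evx1 was well above background on 6 of 6 DKO arrays and on 2 of 6 WT arrays, both of WT 94, with DKO in Cy5 and WT in Cy3. The log2 ratio was 0.35 (SE 0.101, 95% interval 0.10 to 0.61), higher in 4 of 4 pairs, with a limma adjusted p of 0.115. Male pairs averaged 0.32 and female pairs 0.38. Because Evx1 was tested only through the DKO groups and 3 of the WT lines were not above background, these values are a description and give no support for a difference. Evx1 was also not above background in T2KO 16 (6.52) or in T1KO 99 and 65 (6.94 and 6.84).

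T, the brachyury factor of the streak and notochord, did not pass the test between DKO and WT lines. Its levels were 7.12, 6.89, 6.57 and 8.17 in DKO lines 51, 61, 60 and 59, against 6.80, 8.86, 6.49 and 8.10 in WT lines 6, 92, 7 and 94. WT 92, DKO 59 and WT 94 stood above the other lines, and the genotypes overlapped. The pair ratios were 0.32 for DKO 51 over WT 6, -1.97 for DKO 61 over WT 92, 0.09 for DKO 60 over WT 7 and 0.07 for DKO 59 over WT 94. The mean log2 ratio was -0.37 (SE 0.407, 95% interval -1.40 to 0.66, limma adjusted p = 0.601), and 1 pair decided its sign. Without DKO 61 and WT 92 it was 0.16, with an adjusted p of 0.384.

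Wnt3, the ligand that induces the streak, had levels of 6.88, 7.18, 6.70 and 7.53 in DKO lines 51, 61, 60 and 59, against 6.62, 7.41, 6.58 and 7.10 in WT lines 6, 92, 7 and 94. The same 3 lines, DKO 59, WT 92 and WT 94, were among the highest 4, and the genotypes overlapped. The log2 ratio was 0.14 (SE 0.119, limma adjusted p = 0.490), higher in 3 of 4 pairs.

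Gsc, a homeobox factor of the organizer at the anterior streak, had levels of 7.81, 7.76, 7.71 and 8.11 in DKO lines 51, 61, 60 and 59, against 7.85, 8.01, 7.37 and 7.79 in WT lines 6, 92, 7 and 94. The groups overlapped, with a log2 ratio of 0.09 (SE 0.121, limma adjusted p = 0.670). Snai1, a zinc-finger repressor of E-cadherin (Cdh1), had levels of 9.54, 9.61, 9.89 and 10.01 in DKO lines 51, 61, 60 and 59, against 10.13, 9.97, 9.82 and 9.83 in WT lines 6, 92, 7 and 94. Both male DKO lines lay below all WT lines, and both female DKO lines lay above the female WT lines. The ratio over all pairs was -0.18 (SE 0.145, limma adjusted p = 0.479).

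Kdr was probed at 2 places that gave opposite signs. Probe 2 had levels of 10.78 to 10.91 in DKO and 10.88 to 11.06 in WT lines, a log2 ratio of -0.10 (SE 0.0679, limma adjusted p = 0.411). Probe 1, at which each array has 10 spots, was near background, with 6.48 to 6.69 in DKO and 6.27 to 6.52 in WT lines and a ratio of 0.18 (SE 0.0824, adjusted p = 0.240). It was well above background on the 3 female DKO arrays and on 0 of the 3 male DKO and 6 WT arrays. The probes do not settle which of these is the level of the transcript for the receptor. Lhx1 probe 2, for a LIM-homeobox factor of the streak and head mesoderm, had 6.75 to 6.93 in DKO and 6.65 to 6.95 in WT lines, a ratio of 0.04 (SE 0.0879, adjusted p = 0.812).

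**Figure D2:**
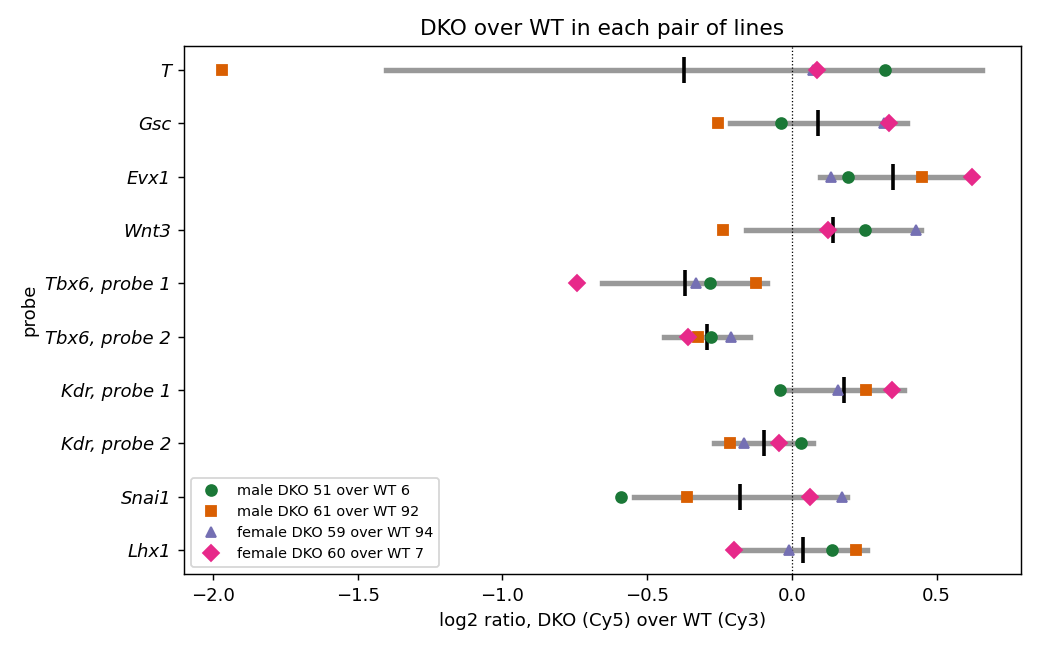
Log2 ratio of DKO over WT for the 10 tested probes, with 1 coloured point per pair of lines, the mean as a black tick and its 95% interval from limma as a grey bar. Both Tbx6 probes lie left of 0 and Evx1 right of 0 in 4 of 4 pairs, and the single point of T at -1.97 is DKO 61 over WT 92.

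A separate test asked whether the DKO effect differed between the male and the female pairs, which lay on different slides, so that sex and slide cannot be told apart. None of the 10 member probes passed (0% of all probes did; limma), and an unadjusted p under 0.05 was found for 2 member probes and for 5.06% of all probes. Snai1 had mean ratios of -0.48 in male and 0.12 in female pairs, a difference of -0.59 (SE 0.147, unadjusted p = 0.0131, adjusted p = 0.834). Gsc had -0.15 in male and 0.33 in female pairs, a difference of -0.47 (SE 0.140, unadjusted p = 0.0243, adjusted p = 0.834). For both genes, both male ratios lay below both female ratios. The reverse held for Tbx6 probe 1 and Lhx1 probe 2. The share of all probes with such a separation was not counted, so these separations are a description and give no support for a difference by sex.

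T2KO was set against T1KO within the arrays that carry both. In T2KO 16, T had a level of 6.38 and Wnt3 of 6.43, and neither was well above background on the 2 arrays, whereas T1KO 65 had 7.40 for T and 7.09 for Wnt3 and was above background on both. In measured level T was 2.03-fold lower and Wnt3 1.58-fold lower in T2KO 16 than in T1KO 65, and neither passed the adjusted threshold. These are point estimates with 1 T2KO line and set no lower bound on a difference. They take the measured value of the dim line, which was not well above background, as its level.

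None of the 10 member probes passed in T2KO over T1KO, as was the case for all probes (0%; limma, with 1 pair whose spread is taken from the DKO and WT pairs). At an unadjusted p under 0.05, where 12.7% of all probes stood, there was 1 member probe, Wnt3, with a log2 ratio of -0.66 (SE 0.229). Snai1 had a level of 9.43 in T2KO 16 and 9.74 in T1KO 65, a ratio of -0.31 (SE 0.147, adjusted p = 0.466). Gsc had 7.83 in T2KO 16 and 7.56 in T1KO 65, a ratio of 0.27 (SE 0.140, interval -0.11 to 0.64). The ratios of both Tbx6 probes were -0.20 and 0.09, and the other members lay between -0.32 and 0.27.

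Loss of Tet1 alone was examined as T1KO minus male WT, all in Cy3, where genotype and slide cannot be told apart. Snai1 had levels of 9.57 and 9.74 in T1KO 99 and 65, against 10.13 and 9.97 in WT 6 and 92. The difference was -0.40 (SE 0.118, unadjusted p = 0.0149, limma adjusted p = 0.296). Gsc had 7.54 and 7.56 in T1KO 99 and 65, against 7.85 and 8.01 in WT 6 and 92, a difference of -0.38 (SE 0.163, adjusted p = 0.392). With 2 lines a side, T at 6.84 and 7.40 in T1KO 99 and 65 and 6.80 and 8.86 in WT 6 and 92 gave a difference of -0.71 with an interval of -2.65 to 1.24. None of the 10 member probes passed, nor did any of the 25857 probes (0%), and an unadjusted p under 0.05 was found for 1 member probe, Snai1, and for 13.3% of all probes. Both Tbx6 probes differed in sign, at 0.22 for probe 1 and -0.18 for probe 2.

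Loss of Tet1 where Tet2 is already lost was examined as male DKO minus T2KO, all in Cy5, again with genotype and slide lying together. Evx1 had levels of 6.95 and 7.20 in DKO 51 and 61, against 6.52 in T2KO 16, where it was not above background. In measured level it was 1.47-fold higher in the male DKO lines, a value that describes a probe admitted to testing through the DKO groups. T and Wnt3 were 1.54-fold and 1.51-fold higher in measured level. Both were admitted to testing only through the male DKO lines, the higher group here, so these values are a description too. The fold values of Evx1, T and Wnt3 are point estimates against 1 T2KO line and set no lower bound on a difference. Tbx6 probe 1 had 7.39 and 7.63 in DKO 51 and 61, against 7.91 in T2KO 16, a difference of -0.41 (SE 0.155, adjusted p = 0.391), and probe 2 differed by -0.20 (SE 0.125, adjusted p = 0.540). None of the 10 member probes passed, against 2 of 25857 probes (0.00773%), and an unadjusted p under 0.05 was found for 2 member probes, Evx1 and Tbx6 probe 1, and for 12.8% of all probes. This comparison and that of T2KO with T1KO share the T2KO line, and those of DKO and T1KO with WT share WT 6 and 92. Those of T1KO with T2KO and with WT share T1KO 65, and those of DKO with WT and with T2KO share DKO 51 and 61.

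**Figure D3:**
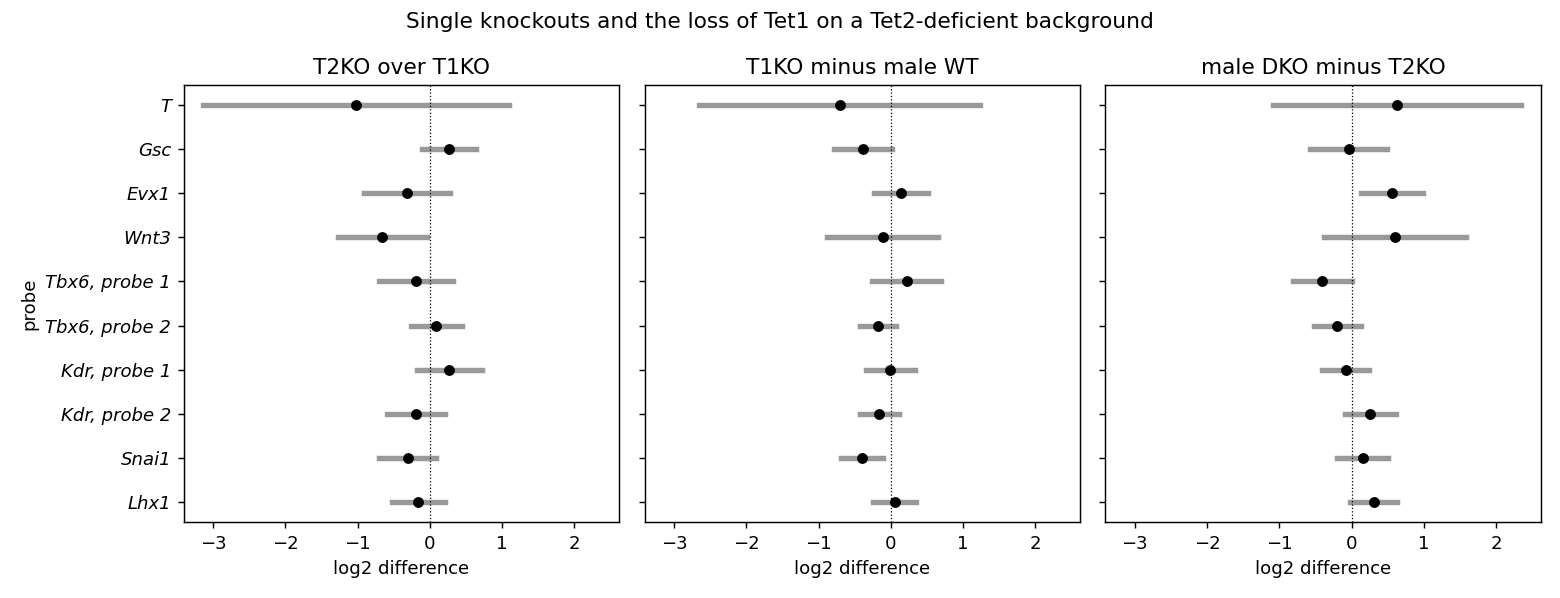
Log2 difference of the 10 tested probes for T2KO over T1KO, T1KO minus male WT and male DKO minus T2KO, with points for the estimate and grey bars for its 95% interval from limma. None of the 10 probes passed the adjusted threshold in any panel, and T has the widest interval in each.

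T and Wnt3 varied widely between lines of the same genotype. Over the 4 WT lines T had an SD of 1.11 on the log2 scale, more than 99.4% of the tested probes, whose median SD was 0.159. The SD of Wnt3 was 0.401, more than 91.5% of probes. Gsc (0.271) and Tbx6 probe 1 (0.263) also lay above the median, while Tbx6 probe 2 (0.0792) and Kdr probe 2 (0.0786) were among the steadier probes.

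T and Wnt3 moved together. Both were well above background on every array of the same lines, namely DKO 51, 61 and 59, WT 92 and 94 and T1KO 65. Neither was well above it in DKO 60, WT 6 and 7, T1KO 99 or T2KO 16. After the mean of each dye was subtracted, their levels correlated over the 11 lines at r = 0.907 (Spearman rho 0.909), at r = 0.799 without WT 92 and DKO 59, the 2 lines farthest from the median of T, and at r = 0.962 over the 6 Cy3 lines. T and Gsc correlated at r = 0.796, and at 0.461 without those 2 lines. In the other direction, Evx1 and Tbx6 probe 2 correlated at r = -0.888 (rho -0.818), and at -0.759 without the 2 lines farthest from the median of Evx1. Tbx6 probe 1 did not follow this as closely, with r = -0.540 to Evx1 (rho -0.064), and -0.252 without those 2 lines. The Tbx6 probes correlated with each other at r = 0.251 (rho -0.136). The pairs T with Wnt3, T with Gsc and Evx1 with Tbx6 probe 2 were chosen from 45 for their size. Lines on the same array share its hybridisation, so the values describe these lines only.

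**Figure D4:**
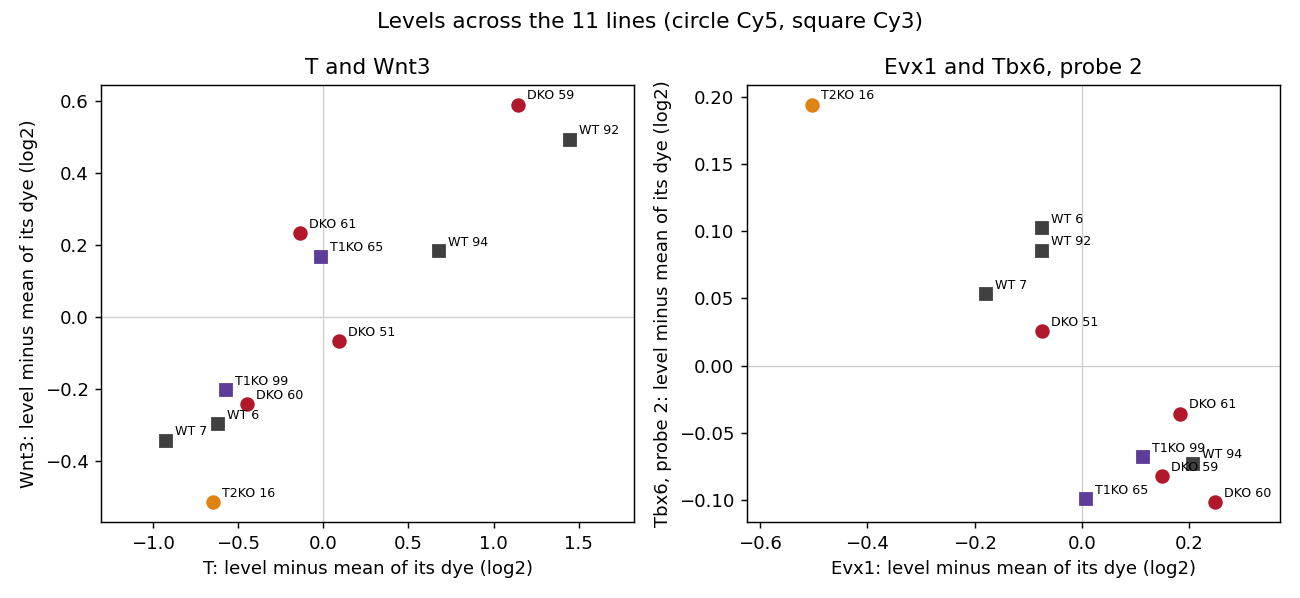
Levels minus the mean of their dye (log2) in the 11 lines, for Wnt3 against T (left) and Tbx6 probe 2 against Evx1 (right), with circles for Cy5 and squares for Cy3. On the left, DKO 59 and WT 92 lie at the upper end and T2KO 16 and WT 7 at the lower end, so that each end holds lines of different genotypes.

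Some genes of the same developmental step had levels that followed T, and others did not. Of 28 tested genes in a list of other streak and mesoderm genes, 15 had a positive correlation with T over the 11 lines, with a median r of 0.05. Foxc1 (r = 0.882), a forkhead factor of paraxial mesoderm, Fgf8 (0.839), a growth factor of the streak, Rspo3 (0.758), an enhancer of Wnt signals, and Sp5 (0.722), a Wnt target in the streak, were highest, and Fgf4 (-0.711), a growth factor of undifferentiated ES cells, was lowest. Without WT 92 and DKO 59 these values were 0.633, 0.584, 0.405, 0.656 and -0.718. Fgf8 had levels of 7.87, 8.44, 8.97 and 9.78 in DKO lines 51, 61, 60 and 59, 7.56 in T2KO 16, and 8.61 and 9.26 in T1KO 99 and 65, against 8.85, 10.30, 7.66 and 9.31 in WT lines 6, 92, 7 and 94. WT 92 and DKO 59 stood highest for Fgf8 as for T, whereas DKO 60, where T was not above background, had more Fgf8 than DKO 51, where it was.

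Over all tested genes, those most like T were Abhd12b (r = 0.982), Sh3pxd2b (0.972) and Rdh10 (0.944), and T was chosen for this after its values were seen. By rule, the genes most like the 3 members with the brightest tested probe were also sought over the 11 lines, a choice by probe brightness that does not rank the transcripts. For Kdr probe 2 they were A930009E08Rik (r = 0.948), 4930515G01Rik (0.947) and 1700028I16Rik (0.939). For Snai1 they were Zdhhc19 (0.928), Tcerg1l (0.910) and Prap1 (0.884), and for Gsc they were Pcsk2 (0.939), Gm2897 (0.936) and Slc6a15 (0.925). With 11 lines and 20666 genes, high correlations arise readily, and these are descriptions.

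Feeder fibroblast markers were also higher in some of the lines with much T, though not in all. Of the 34 markers, 34 were tested and 32 were detected on every array. Their summed intensity, as log2, was 17.94 to 18.22 in DKO, 17.95 in T2KO and 18.10 to 18.21 in T1KO, against 17.71 to 18.50 in WT lines. The median marker lay 0.40 above the mean of its dye in WT 92, 0.28 in WT 94, 0.24 in DKO 59 and 0.30 in DKO 60, where T was not above background. It lay at -0.24 in T1KO 65 and -0.21 in DKO 51, where T was above background, and at -0.45 in WT 7. It correlated with T at r = 0.675 over the 11 lines and at 0.453 without WT 92 and DKO 59. The same value was 0.682 and 0.209 for genes of the epithelial-mesenchymal transition, 0.617 and 0.255 for definitive endoderm and organizer genes, and between -0.49 and 0.46 over all 11 lines for the other 7 lists. Without WT 92 and DKO 59 those 7 lists lay between -0.42 (endothelial and blood) and 0.47 (Wnt pathway, 0.36 over all 11 lines). The part of feeder RNA or of other cell types in the level of T was not tested.

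The wider pathways were read against the 3.95% of all probes past the threshold in DKO over WT, and the 26.0% at an unadjusted p under 0.05. Among 28 tested genes of other streak and mesoderm factors, 1 rose and 0 fell (5 at an unadjusted p under 0.05, median log2 ratio 0.11). It was Eomes, a T-box factor of the streak and of trophoblast, which rose by 0.88 (SE 0.152, limma adjusted p = 0.0481). Its levels were 8.94, 9.43, 10.07 and 9.36 in DKO lines 51, 61, 60 and 59, 8.95 in T2KO 16, and 9.71 and 9.41 in T1KO 99 and 65, against 8.28, 8.63, 8.64 and 8.73 in WT lines 6, 92, 7 and 94. All 7 knockout lines lay above all 4 WT lines, with DKO and T2KO in Cy5 and T1KO and WT in Cy3. The share of all probes separated in this way was not counted. In T1KO minus male WT the difference for Eomes was 1.11 (SE 0.168, adjusted p = 0.185).

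Of 25 genes of the Wnt pathway, which acts upstream of T, 0 passed (5 at an unadjusted p under 0.05, median 0.05), and the genes with the largest ratios were Lrp6, a Wnt co-receptor (-0.50, limma adjusted p = 0.0722), and Myc, a Wnt target (0.47, adjusted p = 0.306). Of 28 genes of the Nodal and BMP pathways, 2 rose and 0 fell (11 at an unadjusted p under 0.05, 23 with a positive ratio, median 0.15). They were Bmpr1a, a BMP receptor (0.62, SE 0.0621, adjusted p = 0.0234), and Smad6, an inhibitor of BMP signals (0.60, SE 0.0859, adjusted p = 0.0360). A positive ratio was held by 53.3% of all probes. In the other lists its share ran from 7 of 21 pluripotency genes to 24 of 34 feeder fibroblast markers. Of 13 genes of definitive endoderm and the organizer, 0 passed (1 at an unadjusted p under 0.05, median 0.04), with Otx2, a head homeobox factor, at 0.28 and Sox17, an endoderm factor, at 0.24. Of 18 genes of the epithelial-mesenchymal transition, 0 passed (4 at an unadjusted p under 0.05, median 0.03), with Cdh1, the target of Snai1, at 1.30 (SE 0.706, adjusted p = 0.306) and Cdh2, the mesenchymal cadherin, at -0.41.

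Lists of other cell types were run beside these. Of 22 endothelial and blood genes, which follow Kdr in development, 1 rose and 0 fell (2 at an unadjusted p under 0.05, median -0.10), namely Cd34, a surface marker of blood and vessel progenitors (0.64, SE 0.0735, limma adjusted p = 0.0254). Of 16 neuroectoderm genes, 1 rose, Neurog2 (0.72, adjusted p = 0.0231), and 1 fell, Sox11 (-1.02, adjusted p = 0.0385), both neural transcription factors, with 5 at an unadjusted p under 0.05 and a median of -0.04. None passed among 34 feeder fibroblast markers (2 at an unadjusted p under 0.05, median 0.05, with Mmp3 at 0.53 and Lum at 0.48), 18 genes of trophectoderm and primitive endoderm (3 at an unadjusted p under 0.05, median 0.13, with Lama1 at -0.79 and Gata6 at 0.51) or 21 pluripotency genes (4 at an unadjusted p under 0.05, median -0.05, with Dppa3 at -0.69 and Tdh at -0.67). In T2KO over T1KO, T1KO minus male WT and male DKO minus T2KO 0 genes of any of these lists passed (limma). In T2KO over T1KO, list medians ran from -0.55 (trophectoderm and primitive endoderm) to 0.40 (pluripotency), against 0.01 over all probes. In male DKO minus T2KO they ran from -0.35 (pluripotency) to 0.27 (Nodal and BMP), against 0.02. T1KO minus male WT had medians from -0.15 (feeder fibroblast markers) to 0.35 (trophectoderm and primitive endoderm), against -0.01. There, 1 to 8 genes of a list stood at an unadjusted p under 0.05, the 8 among 28 Nodal and BMP genes, and 13.3% of all probes. Leaving out any 1 of the 4 pairs left 0 of 25857 probes past the threshold in DKO over WT, as did a variance prior that follows intensity. With each pair left out in turn, the ratio ranged from 0.70 to 0.97 for Eomes, 0.60 to 0.66 for Bmpr1a, 0.53 to 0.68 for Smad6, 0.60 to 0.71 for Cd34, 0.69 to 0.75 for Neurog2 and -1.19 to -0.89 for Sox11, with the same sign in 4 of 4 pairs for each gene.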

How the data were processed

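Total RNA (200 ng per labelling, per the labels) was hybridised on 10 two-colour arrays. Scanner files hold mean spot and median local background intensity per channel from Agilent Feature Extraction 10.1.1.1, not normalized, per the file headers. They also hold processed intensities and their log10 ratio of Cy5 over Cy3, which the software had background-corrected and dye-normalized, and spot flags as a deposited score of 0 or 1, per the file headers. The authors' deposited value table is close to log2 ratios of Cy5 to Cy3, and nothing used here states how it was normalized or centred.

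Background was corrected with normexp (offset 50), leaving out of its fit the 71 to 122 gene spots of each array that were dimmer than their local background, a choice adopted after gene values had been seen. Loess within arrays (control spots at weight 0) and Aquantile between arrays followed. Software was R 4.3.3, limma 3.58.1, the R package data.table at version 1.17.8, jsonlite 2.0.0 and, for plots, matplotlib 3.10.9. The channel excluded by the labels entered this normalization. Outlier spots (173 to 337 per array) were dropped, spots of a probe averaged, and repeat arrays of the same lines averaged before any fit. Testing required detection on every array of some group (a genotype of 1 sex, in the channel that held it), which 25869 probes met, 12 of them without a value for some pair. RefSeq accessions named 26581 of the 39429 probes.

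DKO over WT was fitted on 4 pair ratios, and T2KO over T1KO and the sex difference with a mean per group. T1KO minus male WT and male DKO minus T2KO were fitted on channel levels of lines, with female lines of the same dye used for the spread. Tests were lmFit and eBayes, two-sided, Benjamini-Hochberg at 0.05 over probes, and were tested on simulated data. P-values measure the spread between lines. Precision is limited by how many arrays and lines there were.

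The members and gene lists were chosen with earlier results of these data known. Every member probe is named; from each other list, those past the threshold (at most 4) and otherwise the 2 with the largest ratio are named, with a gene's brightest tested probe standing for it, and for the 3 members with the brightest tested probe the 3 genes most like each. Fgf8 and the genes correlated with T were chosen after their values were seen. Alternatives changed background correction, signals, centring, filter, probe choice, variance prior, repeat arrays, sex as a covariate and the pairs or lines used.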

Additional observations from a re-analysis of the deposited data

Results flagged for a closer look

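The T ratio of DKO 61 over WT 92 was -1.97 on the log2 scale, far from the 0.07 to 0.32 of the other 3 pairs. The gap to the nearest other pair took up most of the range of the 4 values, beyond Dixon's 95% critical value. This pair rests on 1 array. T was not above background in WT 6, DKO 60 and WT 7, so 2 of the other 3 ratios rest on values without a measured level. WT 92 had the highest level of T of all 11 lines, at 8.86, with DKO 61 at 6.89. Of 30 groups of 4 values examined in this way (10 probes, as DKO lines, WT lines and pairs), only this one stood apart, and chance flags about 1 in 20 such groups.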

How the results depend on the processing

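In T2KO over T1KO, T1KO minus male WT, male DKO minus T2KO and the sex difference, no member probe passed the threshold under the alternatives run for that comparison. In DKO over WT 1 passed with median centring in place of loess, Tbx6 probe 2 (-0.25, limma adjusted p = 0.0406). Leaving out each pair or line in turn gave counts of 0 to 0. Over 13 alternatives Evx1 ranged from 0.26 to 0.73 and Tbx6 probe 1 from -0.57 to -0.25, with no change of sign. Signs turned for T without DKO 61 and WT 92 (0.16), for Lhx1 probe 2 there (-0.023), with the scanner software's processed signals (-0.22) and with median centring (-0.089), and with median centring also for Kdr probe 1 (-0.039), Kdr probe 2 (0.18) and Snai1 (0.068). Over the 4 left-out pairs T ranged from -0.60 to 0.16 and Lhx1 probe 2 from -0.023 to 0.12. Median centring moved the median ratio of all probes up by 0.19, whereas the ratios of Kdr probe 1 and Lhx1 probe 2 moved down. The cause of the turns was not tested. The count of all probes past the threshold in DKO over WT was 1021 (61.0% higher) in the main analysis, 173 with normexp on all spots, 767 (73.0% higher) with the processed signals, 8312 (91.8% higher) with median centring, 1331 without a detection filter, 935 with the brightest probe per gene, 537 in the authors' value table, 1735 with every array and the pair of lines as a random effect, 7 with sex as a covariate, and 0 with a variance prior that follows intensity and without each pair in turn. In male DKO minus T2KO it was 2, and 0 to 4 under the alternatives. The authors' table holds ratios only and was not used for the channel comparisons, T1KO minus male WT and male DKO minus T2KO. Median centring and the variance prior that follows intensity were not run for these either. T2KO has 1 line, which cannot be left out.

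No paired analysis was possible because the replicate numbers in the labels count repeat arrays of the same 2 lines, which were averaged into 1 replicate. This concerns the numbers only, since the pairs that arrays make of DKO and WT lines are the unit of the DKO over WT analysis itself. Signal over background limits T, Wnt3, Evx1, Kdr probe 1 and Lhx1 probe 2, which were not well above background in several lines, and Mixl1, Mesp1 and Lhx1 probe 1, which were tested only without a detection filter and did not pass there.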
